A study of Canis lupus familiaris with 34 samples.

Results

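The respiratory chain is the set of protein complexes in the inner mitochondrial membrane that pass electrons to oxygen and use the released energy to make ATP. Its nuclear genes were followed here in osteosarcoma of the dog, a malignant tumour that arises in bone. Members were all gene symbols of the array annotation that start with NDUFA, NDUFB, NDUFC, NDUFS, NDUFV, UQCR, COX4 to COX8 or ATP5, together with the symbols from SDHA to SDHD. The annotation held 75 such symbols, 74 of them had a probe set with a single symbol, and 73 of the 7849 genes tested were members. COX5A was listed only on probe sets with several symbols, and COX6A2, the heart and muscle form of a cytochrome c oxidase subunit, reached at most log2 3.38 on any array, so neither was tested. By symbol, 35 members belong to complex I, 4 to complex II, 7 to complex III, 6 to complex IV and 10 to complex V. The other 11 are assembly factors whose symbols start with NDUFAF or SDHAF.

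Complexes I (NADH dehydrogenase) and II (succinate dehydrogenase) feed electrons into the chain, complex III (cytochrome bc1) passes them to cytochrome c, and complex IV (cytochrome c oxidase) hands them to oxygen. Complex V is the ATP synthase, which is driven by the proton gradient that complexes I, III and IV build. A few subunits exist in isoforms encoded by separate genes, and some of these isoforms are known from human and mouse work to be used in particular tissues or under low oxygen.

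Total RNA had been hybridised to Affymetrix Canine_2 arrays from 3 lines derived from metastases, 25 line arrays derived from primary tumours, and 6 snap-frozen primary tumour tissues, from 31 dogs in all. The pair of line arrays from dog 22 was averaged, giving 24 primary lines, and 2 dogs had a line and a tissue. Metastatic lines came from dogs of 2 breeds with ages at diagnosis of 2.39 to 6.31, primary lines from dogs of at least 7 breeds with ages of 2 to 11.19, and tissues from dogs of 4 breeds with ages of 2.67 to 11.91. The labels give ages without a unit. By sex label, metastatic lines came from 2 male dogs and 1 female dog, and primary lines from 13 male and 10 female dogs. The dog of primary line 15 had no sex label. Tissues came from 1 male dog and 5 female dogs, so sex was not balanced between lines and tissues. Treatment labels of the dogs differed within each group and were not used. Lines were cultured cells, whereas the tissues were whole tumour pieces, in which fewer cells of a type and less RNA per cell cannot be told apart. Levels below are log2 of GCRMA intensity, a microarray signal corrected for background, and differences are log2 differences. A gene was called where limma gave a Benjamini-Hochberg adjusted p under 0.05 over all 7849 genes. Probe sets differ in how strongly they hybridise, so levels are compared between samples and not between genes.

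The tissues held transcripts of other cell types. All 12 tested macrophage genes and 7 of 8 endothelial genes were called lower in primary lines than in tissues, as were 3 of 5 osteoclast and 5 of 9 osteoblast genes. The share called lower over all genes tested was 12.8%. The summed macrophage signal was log2 5.93 to 6.25 in metastatic lines, 5.87 to 13.81 in primary lines and 12.43 to 14.69 in tissues, and only primary line 4 among the primary lines exceeded 7.60. The type I collagen genes COL1A1 and COL1A2 averaged 13.66 and 14.31 in primary lines. The osteoblast genes ALPL and IBSP averaged 3.40 and 2.86 there, near background. Other genes of the osteoblast list were higher, with DLX5 over log2 5 in 21 of 24 primary lines and SPP1 in 9. RUNX2 was over this level in 5 lines, ALPL and BGLAP in 4 each, PTH1R in 3 and IBSP in 0. Of the skeletal muscle list 0 of 3 tested genes were called. The mean actin signal at the 3′ end minus that at the 5′ end, which grows as RNA degrades, averaged 3.19 ± 0.61 in the 24 primary lines and 4.12 ± 0.71 in the 6 tissues (SD), and each of the 6 pairs of actin probe sets was larger in tissues. The part of cell mixture and RNA quality in the differences between lines and tissues was not tested. Sample titles carried 3 prefixes, treated as possible batches. Lines and tissues occurred together in title prefix 3 alone, with 2 line arrays and all 6 tissues.

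Differences between primary lines and tumour tissues were small for most respiratory chain genes. Of 73 members, 3 were called higher in primary lines (NDUFA7, NDUFS3 and SDHAF4) and 6 lower (COX4I2, SDHAF3, UQCRFS1, ATP5J2, NDUFB11 and ATP5MC3). Over all genes tested, 9.84% were called higher in primary lines and 12.8% lower. The 9 called members make 12.3% of the 73, against 22.6% over all genes in either direction. With a change of at least 2-fold also required, COX4I2 alone was called among the members, against 14.6% of all genes. A further probe set of NDUFAF6, not used in these counts, gave 1.07 (limma adjusted p = 0.00468 over all kept probe sets). The NDUFAF6 probe set used gave 0.42 (adjusted p = 0.203). The median difference was -0.07 over the members and -0.05 over all genes, and the median absolute difference was 0.18 over the members and 0.46 over all genes. These sets were not matched for signal, with a median in primary lines of 11.11 over the members and 7.94 over all genes. Cytosolic ribosome genes, with a median signal of 13.69 there, had a median absolute difference of 0.10, and 6.25% were called. With each array centred on its own median, 3 members were called higher and 3 lower. In 0 of 73 members were all primary lines separate from all tissues, and this held in 121 of the 7849 genes.

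**Figure D1:**
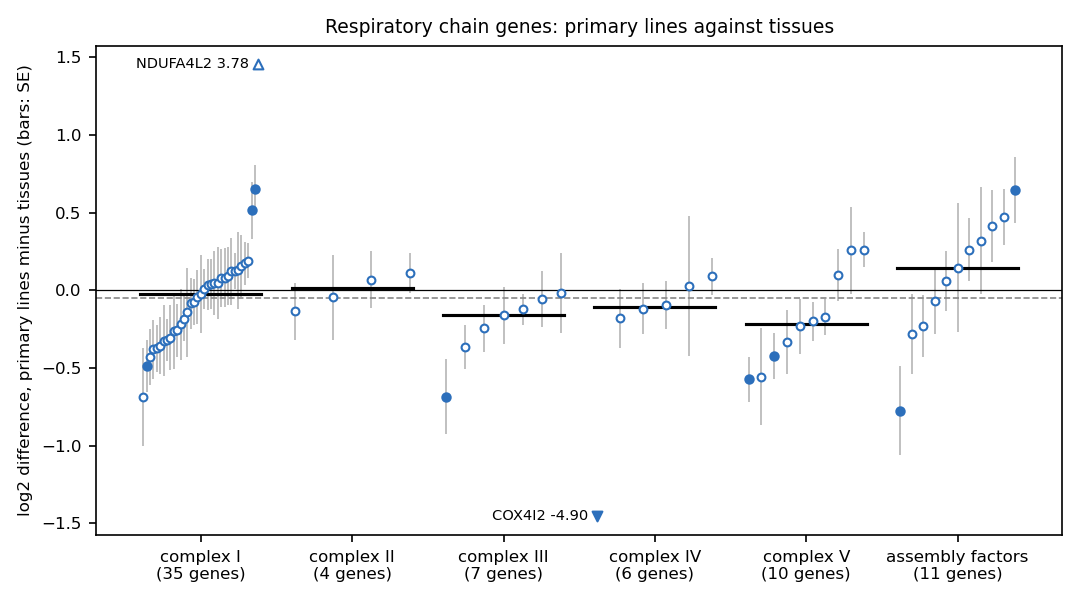
Log2 difference between primary lines (n = 24) and tissues (n = 6) for each of the 73 members, grouped by complex; filled symbols were called, bars are standard errors, short lines are medians of a complex and the dashed line is the median of all genes. Most members lie within 0.5 of 0, and COX4I2 (-4.90) and NDUFA4L2 (3.78) lie beyond the axis as triangles.

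The medians of the complexes lay close together, and no test between complexes was made. The median difference between primary lines and tissues was -0.02 for complex I, 0.01 for complex II, -0.16 for complex III, -0.11 for complex IV, -0.22 for complex V and 0.15 for the assembly factors. On the probe set used for each gene, all 7 complex III members were lower in primary lines, by 0.02 to 0.68, but 1 of them was called. Further probe sets were higher in primary lines for UQCR10 (0.20), UQCRH (0.14) and UQCR11 (0.36 to 0.70). The other further probe sets of the complex were lower. In complex I, 17 of 35 members were higher and 18 lower, and 3 were called. In complex V 2 of 10 members were called, and in complex II 0 of 4. The complex III median stayed below 0 under each alternative run (-0.24 to -0.11), whereas that of complex V was 0.20 when probe sets that can match several transcripts were left out.

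COX4I2, the alternative form of subunit 4 of cytochrome c oxidase, known in human and mouse from lung and from oxygen-regulated expression, had the largest difference of the members. It stood at 2.50, 2.73 and 2.40 in metastatic lines 1, 2 and 3. In primary lines it ran from 2.32 to 7.40 with a median of 3.08, and in tissues from 5.53 to 11.31 with a median of 8.49. All tissues were over log2 5, the level used to keep a probe set, against 5 of 24 primary lines, and primary lines 4, 12 and 14 lay above the lowest tissue. The difference was -4.90 (SE 0.69, adjusted p = 2.38e-06), which makes tissues 29.9-fold higher. With most primary lines near the bottom of the signal range, the size of this difference is uncertain. The difference between line and tissue of the same dog was -4.59 in dog 22 and -4.15 in dog 23. The call was kept without each tissue in turn (adjusted p at most 3.46e-05) and when title prefix entered the fit (-6.00, adjusted p = 0.00221), and was missed within title prefix 3 alone (-6.00, adjusted p = 0.0603). Tissues occurred in title prefix 3 alone, so both of these fits set them against the line arrays of that prefix. Primary line 4, at 6.91, had a summed endothelial signal of log2 14.99, against at most 7.95 in the other primary lines and 10.97 to 14.99 in tissues, and without this line the COX4I2 difference was -5.04 (adjusted p = 5.46e-07). Of 4 genes known from pericytes of the vessel wall, chosen after values were seen, RGS5 and MCAM were lower in primary lines (-4.99, adjusted p = 2.70e-17, and -4.87, adjusted p = 1.88e-05). PDGFRB and ACTA2 were not called (-1.01, adjusted p = 0.422, and 0.03, adjusted p = 0.988). Over the 24 primary lines COX4I2 correlated with MCAM at -0.200 (rho = -0.159) and with RGS5, which reached at most 2.42 there, at 0.156 (rho = 0.06). RGS5 was near background in these lines, and COX4I2 was over log2 5 in 5 of 24. The correlation with RGS5 therefore cannot show whether these genes move together. The part of vessel cells in the COX4I2 difference was not tested.

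COX4I1, which encodes the common form of the same subunit, was not called. It stood at 13.05, 12.34 and 12.58 in metastatic lines 1, 2 and 3, between 11.95 and 12.97 with a median of 12.27 in primary lines, and between 11.95 and 12.99 with a median of 12.52 in tissues. The groups overlapped over nearly their whole range, and the difference was -0.09 (SE 0.16, adjusted p = 0.704). COX7A1, the muscle and heart form of subunit 7A, had a difference of 0.03 (SE 0.45) with primary lines at 6.71 to 11.93 and tissues at 8.92 to 10.86. COX7A2L, which takes part in joining complexes III and IV into supercomplexes, had a difference of -0.18 (SE 0.19), and COX8A, a small subunit, of -0.12 (SE 0.16). COX5B, the remaining complex IV member, had a difference of 0.09.

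**Figure D2:**
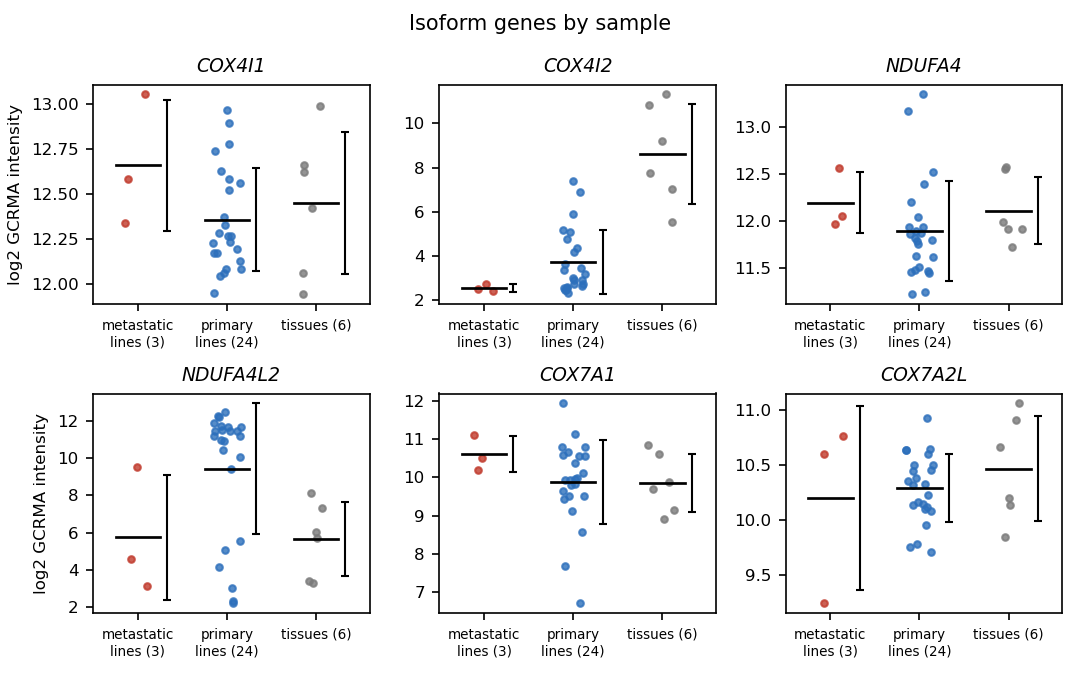
Log2 GCRMA intensity of 6 genes that encode isoforms, in metastatic lines (3), primary lines (24) and tissues (6); each point is a sample, lines are means and bars are SD. COX4I2 is high in tissues (5.53 to 11.31) and NDUFA4L2 is high in most primary lines (median 11.18), while COX4I1, NDUFA4, COX7A1 and COX7A2L overlap between groups.

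NDUFA4L2, a relative of NDUFA4 that in human cells is induced by low oxygen and lowers complex I activity, varied most of all members. It stood at 3.13, 9.54 and 4.60 in metastatic lines 1, 2 and 3. Primary lines ran from 2.22 to 12.46 with a median of 11.18, and tissues from 3.31 to 8.11 with a median of 5.87. The primary lines fell into separate sets, 18 lines at 9.41 or more and 6 lines at 5.55 or less, and every tissue lay below the 18. The difference between primary lines and tissues was 3.78 (SE 1.44, adjusted p = 0.0547), which missed the threshold. The adjusted p was 0.0477 with quantile normalization and 0.0465 when tissue 2 was left out. Within title prefix 3 the difference turned to -2.97 (adjusted p = 0.228). The line arrays of that prefix came from dogs 22 and 29, whose lines were both in the low set. The dogs with both samples differed in direction, at -0.99 in dog 22 and 5.76 in dog 23. NDUFA4, named for complex I and since assigned to complex IV, had a difference of -0.22 (SE 0.23, adjusted p = 0.528).

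In complex I, NDUFA7, an accessory subunit, was higher in primary lines. It stood at 11.86, 10.78 and 10.87 in metastatic lines 1, 2 and 3. Primary lines ran from 10.56 to 11.83 with a median of 10.97, and tissues from 10.19 to 10.62 with a median of 10.34. Only the highest tissue reached into the range of the lines, and the difference was 0.65 (SE 0.16, adjusted p = 0.00261), a 1.57-fold difference. A further NDUFA7 probe set gave 0.57 (adjusted p = 0.0103, adjusted here and for further probe sets below over all kept probe sets). The call was kept without each tissue in turn, and it was lost in females alone (0.69, adjusted p = 0.0552) and within title prefix 3 (0.30, adjusted p = 0.572).

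NDUFS3, a core subunit of the arm of complex I that reaches into the matrix, was higher in primary lines by 0.51 (SE 0.18, adjusted p = 0.0409). It stood at 12.26, 11.96 and 11.98 in metastatic lines 1, 2 and 3, between 10.58 and 12.50 with a median of 11.69 in primary lines, and between 10.71 and 11.85 with a median of 11.04 in tissues. The groups overlapped, the call was lost without tissue 1, 4, 5 or 6 (adjusted p up to 0.128), and within title prefix 3 the difference turned to -0.30 (adjusted p = 0.721). A further NDUFS3 probe set gave 0.18 (adjusted p = 0.479). NDUFB11, an accessory subunit of the membrane arm, was lower in primary lines (-0.49, SE 0.17, adjusted p = 0.0306). It stood at 11.02, 10.45 and 10.58 in metastatic lines, between 9.87 and 11.22 with a median of 10.39 in primary lines, and between 10.23 and 11.40 with a median of 10.93 in tissues. Metastatic lines lay within the range of the primary lines, and the call was lost without tissue 3, 4, 5 or 6 (adjusted p up to 0.124). Among the other complex I members NDUFB9, an accessory subunit, had the most negative difference at -0.69 (SE 0.32, adjusted p = 0.117). Its highest values were 14.55 in primary line 12 and 14.18 in tissue 4, against a median of 11.93 over primary lines.

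No complex II member was called. SDHC, which encodes a membrane anchor of succinate dehydrogenase, had the smallest p of its 4 members, with a difference of 0.11 (SE 0.13, adjusted p = 0.578). It stood at 11.02, 10.83 and 10.80 in metastatic lines, between 10.11 and 11.15 with a median of 10.59 in primary lines, and between 10.40 and 10.68 with a median of 10.43 in tissues. The catalytic flavoprotein SDHA differed by -0.14, the iron-sulfur subunit SDHB by 0.07 and the other anchor SDHD by -0.04. Assembly factors of this complex differed in both directions. SDHAF4, which assists the maturation of SDHA, was higher in primary lines by 0.64 (SE 0.21, adjusted p = 0.0270), with 9.29 to 10.89 (median 9.90) in primary lines and 8.36 to 10.14 (median 9.36) in tissues. SDHAF3, which assists the maturation of SDHB, was lower, with a difference of -0.77 (SE 0.29, adjusted p = 0.0478), with 6.44 to 9.49 (median 7.93) in primary lines and 7.66 to 9.55 (median 8.89) in tissues. Both pairs of ranges overlapped. A further SDHAF4 probe set gave 0.79 (adjusted p = 0.0132), and the SDHAF4 call was lost without tissue 2, 3 or 5 and the SDHAF3 call without tissue 3, 4, 5 or 6.

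In complex III the Rieske iron-sulfur protein UQCRFS1, which takes electrons from ubiquinol, was lower in primary lines. It stood at 10.47, 11.84 and 12.03 in metastatic lines 1, 2 and 3. Primary lines ran from 10.42 to 12.45 with a median of 11.71, and tissues from 11.88 to 12.64 with a median of 12.25. The tissues lay in the upper part of the range of the lines, and the difference was -0.68 (SE 0.24, adjusted p = 0.0375). It was 0.16 within title prefix 3 (adjusted p = 0.815) and -0.14 on a further probe set (adjusted p = 0.740), and the call was lost without tissue 1, 3, 4 or 6. UQCRQ, a small subunit that binds ubiquinone, came next at -0.37 (SE 0.14, adjusted p = 0.0595). The core proteins UQCRC1 and UQCRC2 differed by -0.02 and -0.16.

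In complex V the called members belong to the membrane part of ATP synthase. ATP5J2, the older symbol of the gene for subunit f, stood at 12.68, 12.02 and 12.37 in metastatic lines 1, 2 and 3. Primary lines ran from 11.56 to 12.70 with a median of 12.11, and tissues from 12.47 to 12.97 with a median of 12.65. Most primary lines lay below every tissue, and the difference was -0.57 (SE 0.14, adjusted p = 0.00436). The call was kept without each tissue in turn, whereas a further ATP5J2 probe set gave -0.04 (adjusted p = 0.890) and title prefix 3 gave -0.17 (adjusted p = 0.791). ATP5MC3 is 1 of 3 genes, with ATP5MC1 and ATP5MC2, that encode the same mature subunit c of the rotating ring. ATP5MC3 was lower in primary lines, with a difference of -0.42 (SE 0.15, adjusted p = 0.0389), and lost its call without tissue 1, 3 or 4. It ran from 12.29 to 13.46 (median 12.74) in primary lines and from 12.63 to 13.82 (median 13.13) in tissues. ATP5MC1 (-0.56, SE 0.31, adjusted p = 0.208) and ATP5MC2 (-0.33, SE 0.21, adjusted p = 0.259) were not called. The catalytic subunits ATP5F1A and ATP5F1B differed by -0.23 and -0.20, and ATP5IF1, the inhibitor of ATP synthase, by 0.26 (SE 0.11, adjusted p = 0.0909). Further ATP5IF1 probe sets gave 0.51 (adjusted p = 0.0172) and 0.36 (adjusted p = 0.0711).

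**Figure D3:**
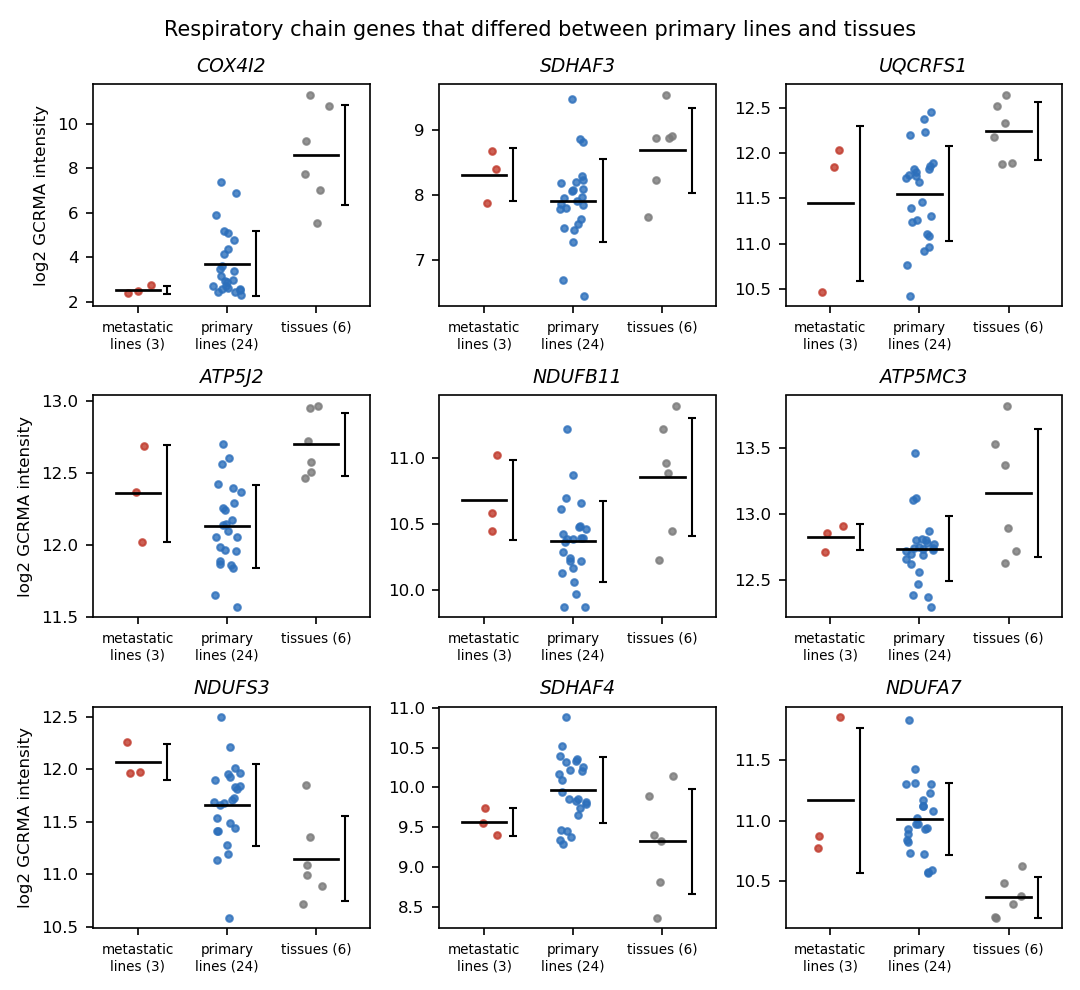
Log2 GCRMA intensity of the 9 called members in metastatic lines (3), primary lines (24) and tissues (6), ordered from the most negative to the most positive difference between primary lines and tissues; each point is a sample, lines are means and bars are SD. In every panel at least 1 primary line lies within the range of the tissues.

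In the 2 dogs with a line and a tissue, the median difference between line and tissue over the 73 members was 0.08 in dog 22 and -0.51 in dog 23, against 0.12 and -0.20 over all genes. In both dogs 6 members were higher in the line and 22 lower, and 45 had opposite directions. Of all 7849 genes, 1856 were higher in both lines, 2005 lower, and 3988 had opposite directions. Among the called members COX4I2, NDUFA7, NDUFB11 and SDHAF3 had the direction of the group difference in both dogs. The other called members had opposite directions in dogs 22 and 23. They were UQCRFS1 (0.31 and -0.54), ATP5J2 (0.09 and -0.91), ATP5MC3 (0.14 and -0.51), NDUFS3 (-0.42 and 0.05) and SDHAF4 (1.02 and -0.24). Complex V stood at 0.06 in dog 22 and -0.86 in dog 23, and the assembly factors at 0.69 and -0.46. The median of the 9 tested cell division genes of the G2/M list was 1.19 higher in the line than in the tissue of dog 22, and was -6.32 in dog 23.

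Other mitochondrial and metabolic genes were counted from lists. Beside these counts, 9.84% of all genes tested were called higher in primary lines and 12.8% lower, or 22.6% in either direction. The shares called in the citric acid cycle (26.7%), fatty acid oxidation (21.4%) and biogenesis regulators (27.3%) lay near this background. That of glycolysis and hypoxia was 55.6%, and that of the mitochondrial ribosome 15.3%. Glycolysis and hypoxia genes had 10 of 18 called higher in primary lines and 0 lower, with a median of 0.85, and all 18 differences were above 0. Among them were the peptide gene ADM (3.83), the phosphofructokinase PFKP (2.64) and lactate dehydrogenase LDHA (0.78). In the citric acid cycle 3 of 15 were called higher (SUCLA2 at 1.24, citrate synthase CS at 0.81 and SUCLG2 at 0.69) and 1 lower (IDH3B at -1.02), with a median of 0.04. Fatty acid oxidation had 1 of 14 higher (ETFDH at 0.50) and 2 lower (ACADS at -0.93 and ACADVL at -0.91). Regulators of mitochondrial biogenesis had 0 of 11 higher and 3 lower, which were the mitochondrial DNA polymerase POLG (-1.29), the mitochondrial RNA polymerase POLRMT (-0.94) and the transcription factor YY1 (-0.44). Mitochondrial ribosome genes had 8 of 72 higher and 3 lower, with a median of -0.07. Cytosolic ribosome genes had 0 of 48 higher and 3 lower. Complex IV assembly factors had COX11 lower (-1.09) among 12, and a list of 14 further assembly factors, of complexes I, III and V, had the complex I factors ACAD9 higher (0.55) and FOXRED1 lower (-1.43). Import and carrier genes had 2 of 15 higher (HSPA9 and SLC25A4), and oxidative defence had TXNRD2 lower among 7. CYC1, the cytochrome c1 subunit that the symbol rule leaves out, and cytochrome c itself (CYCS) were not called (-0.30 and -0.35).

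Metastatic and primary lines were set against each other to ask whether lines from metastases differ in these genes. None of the 73 members was called in limma (0 of 73, with 6 at an unadjusted p under 0.05), against 0.0127% of all genes, which is 1 gene, with 533 genes at an unadjusted p under 0.05. The difference was above 0 in 65 of 73 members and in 4280 of all 7849 genes. Its median was 0.22 over the members and 0.05 over all genes. By complex the median was 0.23 for complex I, 0.22 for complex II, 0.24 for complex III, 0.26 for complex IV, 0.12 for complex V and 0.22 for the assembly factors. The median over the members was 0.13 without metastatic line 1, with 54 members above 0, 0.34 without metastatic line 2 and 0.26 without metastatic line 3.

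**Figure D4:**
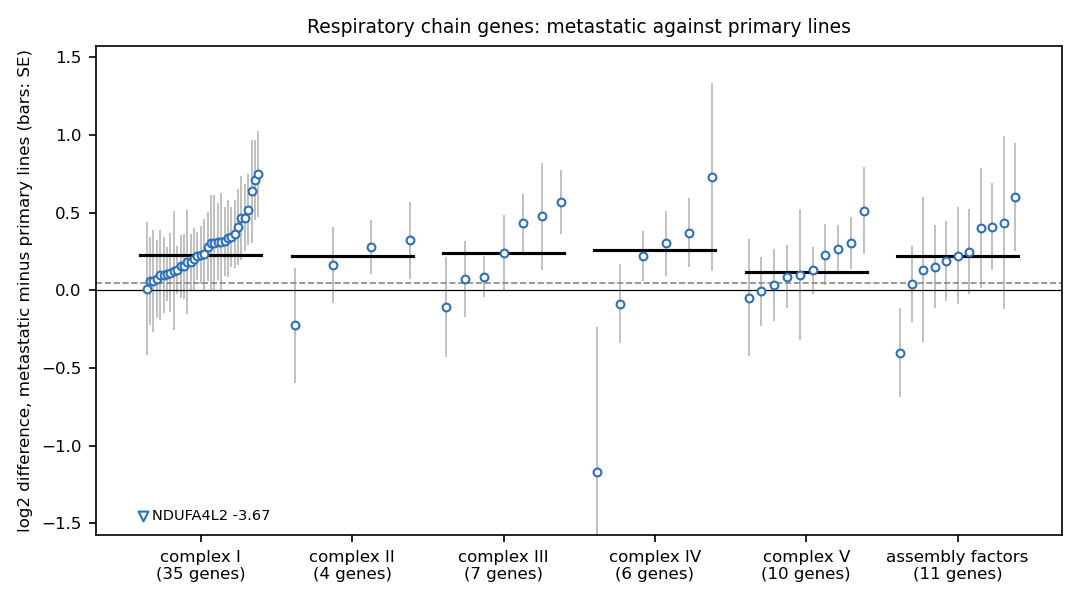
Log2 difference between metastatic lines (n = 3) and primary lines (n = 24) for each of the 73 members by complex; bars are standard errors, short lines are medians of a complex and the dashed line is the median of all genes (0.05). Most points lie above 0, none was called, and NDUFA4L2 (-3.67) lies beyond the axis as a triangle.

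The smallest unadjusted p belonged to UQCR11, a small complex III subunit, and to NDUFB7 and NDUFC2, accessory subunits of complex I. UQCR11 stood at 11.24, 10.93 and 11.01 in metastatic lines 1, 2 and 3, and at 10.02 to 11.10 with a median of 10.45 in primary lines (0.57, SE 0.21, adjusted p = 0.576). NDUFB7 stood at 11.54, 10.63 and 10.81 in metastatic lines, and at 9.05 to 10.95 with a median of 10.35 in primary lines (0.71, SE 0.26, adjusted p = 0.576). NDUFC2 stood at 8.71, 7.54 and 7.76 in metastatic lines, and at 6.37 to 8.08 with a median of 7.30 in primary lines (0.75, SE 0.28, adjusted p = 0.576). In all 3 genes metastatic line 1 was above every primary line and the other metastatic lines lay within their range. NDUFA4L2 had the most negative difference (-3.67, SE 1.93, adjusted p = 0.767), with metastatic lines 1 and 3 among the low values and metastatic line 2 among the high ones. All 18 glycolysis and hypoxia genes had a difference below 0 (median -0.79), and 0 of them were called. As a median over the members of the deviation from the mean of all 33 samples, metastatic lines 1, 2 and 3 stood at 0.46, 0.06 and 0.16, primary lines between -0.39 and 0.31, and tissues between -0.23 and 0.41.

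Among the 24 primary lines most members varied little. The median SD over the lines was 0.39 for the members and 0.67 for all genes, which were not matched for signal. For cytosolic ribosome genes it was 0.17. The smallest SDs were those of NDUFS4 (0.131), an accessory subunit needed for stable complex I, and UQCRH (0.159), the hinge protein of complex III. The 5 largest were those of NDUFA4L2 (3.49), COX4I2 (1.46), COX7A1 (1.09) and the complex I assembly factors NDUFAF4 (1.04) and NDUFAF7 (0.756). COX7A1 was lowest in primary line 23 (6.71) and primary line 6 (7.70), and highest in primary line 12 (11.93). NDUFAF4 ran from 5.47 in primary line 24 to 9.70 in primary line 4, and NDUFAF7 from 6.47 to 9.18 in the same lines.

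Members moved together across the lines. The median correlation between pairs of members over the 24 lines was 0.257, against 0.0115 over pairs of all genes. Between a member and a mitochondrial ribosome gene the median was nearly as high as between members. Correlation at this level was therefore not particular to the respiratory chain. Within and between complexes the median correlation was highest within complex III (0.421) and lowest between complexes I and II (0.0174). Points of these correlations share an array and its normalization. The median deviation of the members from their mean was highest in primary line 6 (0.32), primary line 12 (0.30) and primary line 4 (0.28), and lowest in primary line 24 (-0.35), primary line 14 (-0.24) and primary line 13 (-0.22). Primary line 7 had 66 of 73 members above the mean and primary line 24 had 67 below it. The summed macrophage signal of primary line 4 stands far above that of the other lines, and without it 3 members were called higher in primary lines than in tissues and 7 lower.

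In all, 21 relations were computed across the lines. Lines with higher G2/M genes had higher respiratory chain genes (Pearson r = 0.753, Spearman rho = 0.745, n = 24). The correlation was 0.730 without the 2 lines farthest from the median and 0.812 within title prefix 2 (19 lines). By complex it was 0.852 for complex V, 0.722 for the assembly factors, 0.694 for complex III, 0.678 for complex I, 0.487 for complex II and 0.365 for complex IV. Mitochondrial ribosome genes correlated with the members at 0.922 (rho = 0.950), citric acid cycle genes at 0.659 (rho = 0.623) and cytosolic ribosome genes at 0.308 (rho = 0.309). The median of all kept probe sets of an array correlated with the members at 0.235, and at 0.507 within title prefix 2, and the actin 3′ minus 5′ signal at -0.390 (-0.393 within title prefix 2). The part of signal level and RNA quality in these relations was not tested. The 6 genes outside the members most like them, by correlation with the mean standardised level of the 73 members over 24 lines, were NOP2 (0.917), POLR2I (0.889), NUDT16L1 (0.871), SNRPB (0.865), PSMD14 (0.860) and PSMA5 (0.859). Among the members NDUFAF5 (0.892) and ATP5F1B (0.831) were closest to that mean, which includes them. NDUFA4L2, whose values fell into separate sets, ran most against it and is described below. Next came SDHD (-0.365) and NDUFAF3 (-0.205).

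The median deviation of the members was above 0 in all 6 primary lines with low NDUFA4L2 and in 6 of the 18 with high NDUFA4L2. The 6 primary lines with low NDUFA4L2 were lines 6, 7, 12, 19, 23 and 25, and their median deviations of the members were 0.32, 0.23, 0.30, 0.09, 0.13 and 0.19, and those of the 18 others ran from -0.35 to 0.28. Within the 18 lines with high NDUFA4L2 its correlation with the members was -0.791 (rho = -0.649), and within the 6 others 0.344 (rho = 0.0857), and because the lines fall into separate sets no pooled value is given. PDK1, a kinase that restrains pyruvate entry into the citric acid cycle, correlated with NDUFA4L2 at 0.659 within the 18 lines (rho = 0.798) and at -0.142 within the 6 (rho = -0.143). ADM gave 0.199 within the 18 (rho = 0.379) and -0.789 within the 6 (rho = -0.657), and the glycolytic enzyme PGK1 gave 0.0127 (rho = 0.0506) and 0.620 (rho = 0.714). The glycolysis and hypoxia score also left a gap, with lines 4, 6, 7, 12, 19, 23 and 25 at -0.40 or less and the other 17 lines at 0.00 or more. Its correlation with the members was 0.301 within the 7 lines (rho = -0.214) and -0.159 within the 17 (rho = -0.0809), so the relation between the sets was not seen within either of them. The G2/M relation of the members was 0.604 within the 18 lines with high NDUFA4L2 (rho = 0.569) and -0.296 within the 6 others (rho = -0.371).

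**Figure D5:**
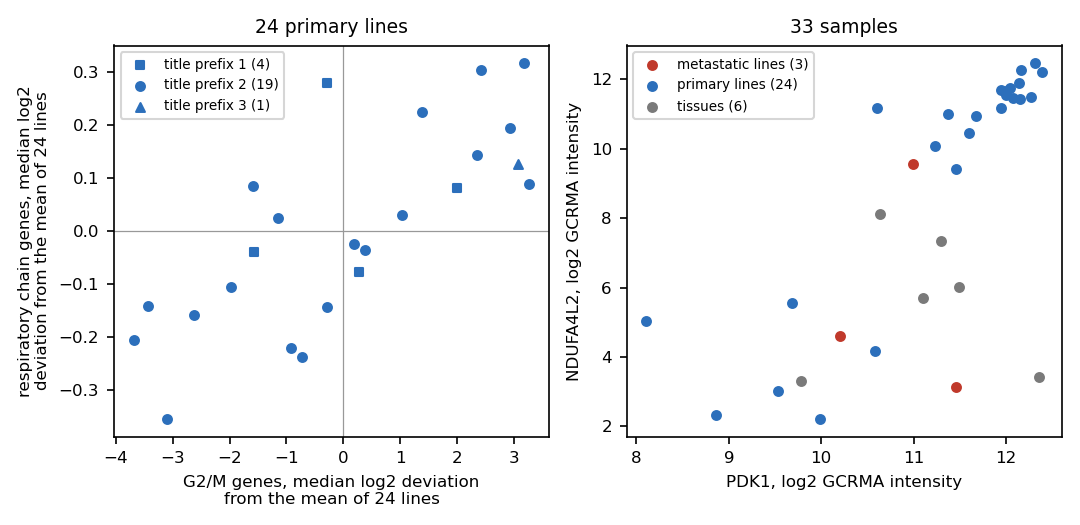
Left, median log2 deviation of the 73 members against that of the G2/M genes in 24 primary lines, with shapes for the title prefix. Right, log2 GCRMA intensity of NDUFA4L2 against PDK1 in metastatic lines (3), primary lines (24) and tissues (6); 18 primary lines lie at 9.41 or more on the NDUFA4L2 axis and 6 at 5.55 or less, and the tissues lie between 3.31 and 8.11.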

How the data were processed

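Transcript levels were measured in 34 samples, which were grouped by their source label into metastatic lines, primary lines and tissues. Each array came with the authors' deposited intensity per probe set. GCRMA is the tool named for it, per the submitters' processing notes, with version and settings not given there. Since the scale was linear, log2 was taken after a floor at 1 that changed no value. Precision is limited by the number of arrays. Column medians of the linear intensity were 8.11 to 8.40 in metastatic lines, 8.11 to 8.54 in primary lines and 8.31 to 8.71 in tissues.

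The arrays held 43035 probe sets, of which 175 were controls and were dropped, and symbols came from the platform annotation. Probe sets entered when 3 or more of the 34 arrays exceeded log2 5, and the kept probe set of a single symbol with the highest mean stood for its gene. The 3 groups shared 1 fit in limma 3.58.1 (lmFit and eBayes, R 4.3.3), with Benjamini-Hochberg adjustment over 7849 genes. The p-values rest on 1 estimate of spread per gene, shared by the 3 groups, in which the 24 primary lines weigh most. They do not measure the spread among the tissues alone. The median SD over the members was 0.39 in primary lines and 0.40 in tissues. For COX4I2 the SDs were 1.46 and 2.25, and for RGS5 0.20 and 1.23. Where tissues vary more than lines, the p-values can be too small. The fit was tested on simulated data for primary lines against tissues. It recovered 4.48% of 1.5-fold changes, 40.3% of 2-fold changes and 86.4% of 4-fold changes. These were set in 67, 67 and 66 of 7849 genes, whereas 22.6% of genes were called in the data. The adjustment is stricter where fewer genes change. Members also varied less over primary lines than all genes (median SD 0.39 against 0.67). The shares are therefore not rates for the members, of which ATP5J2 was called at a 1.49-fold difference. A member that was not called is still not shown to be unchanged. Alternatives are given in the closing section.

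The members, the 11 pathway and 9 marker lists and the tests were chosen with earlier results of these data known. Members given in full were, per complex, the called members or else that with the smallest p, the isoform genes, the 5 with the largest SD over primary lines and the 3 with the smallest p between metastatic and primary lines. COX5B, NDUFB9, UQCRQ and other members outside that rule were named after their values were seen. The erythroid list and the list for T and NK cells had no tested gene, and 3 of 5 adipocyte genes were called lower in primary lines. In relations across lines the averaged line of dog 22 counted as title prefix 2. A line and a tissue came from the same animal in dogs 22 and 23 per the labels, and their deviations from the group means correlated at 0.157 and -0.175. Sequences of the members were not used here.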

Additional observations from a re-analysis of the deposited data

Results flagged for a closer look

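In 4 of the 73 members 1 tissue stood apart from the other tissues by Dixon's criterion at the 95% level, which chance meets in about 1 of 20 groups. The count of 4 among 73 is close to that rate, and the share over all genes is not given. The values below are a description only. In tissue 3, the complex I subunit NDUFB8 stood at 11.91, against 11.59 in the next tissue. NDUFV3, another complex I subunit, stood at 11.10 in tissue 3, against 10.22 in the next. The complex III subunit UQCRQ stood at 13.54 in tissue 3, against 13.01 in the next. Tissue 3 also had the highest median deviation over all members among the tissues (0.41). SDHD, a membrane anchor of complex II, stood at 7.83 in tissue 5, against 9.18 in the next lowest tissue.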

How the results depend on the processing

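Between primary lines and tissues 3 members were called higher and 6 lower. With title prefix as a covariate the counts were 0 and 1, within title prefix 3 they were 0 and 0, and in females alone (10 primary lines and 5 tissues) 0 and 2. Because tissues occurred in title prefix 3 alone, the covariate fit also set them against the few line arrays of that prefix. The covariate fit and the fit within title prefix 3 are therefore not separate checks. Over all genes 772 were called higher and 1002 lower; the counts were 189 and 328 with the covariate, 81 and 171 within title prefix 3, 275 and 515 in females, and 1288 and 1536 with no filter. Median centring gave 3 lower members, and leaving out probe sets ending _x_at or _s_at, which leaves 47 members, gave 2. Leaving out each tissue gave 1 to 4 higher members (1 without tissue 5) and 2 to 8 lower members (2 without tissue 3, 3 without tissue 6). The complex V median moved to 0.20 without probe sets ending _x_at or _s_at, and the assembly factor median to 0.47 with the covariate and within title prefix 3. NDUFS3 turned to -0.30 (adjusted p = 0.616 with the covariate and 0.721 within title prefix 3) and UQCRFS1 to 0.16 (adjusted p = 0.838 and 0.815). The cause of these shifts was not tested, beyond fewer samples or members where stated. Pairing by dog, fitted as a replicate block by dog (estimated correlation -0.0267), gave 3 higher and 6 lower members and changed no call of a member. Between metastatic and primary lines 0 members were called under each of 15 alternatives. Several probe sets were kept for 42 members, and in 13 of these a probe set had the opposite sign. In 5 of the 42, some but not all probe sets were called between primary lines and tissues. Promoter motifs and protein sequences were not run.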
